A study of Homo sapiens with 6 samples.

Results

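Ferritin and iron handling genes were followed by name through the 6 libraries of an RNA sequencing study of hTert-HME1, a human mammary epithelial line immortalised with telomerase. The set held 8 genes, FTH1, FTL, TFRC, SLC40A1, SLC11A2, NCOA4, IREB2 and ACO1, among 57820 gene rows. They were chosen by symbol and function, with earlier results of these libraries known and no threshold, so the p-values below place each gene among all genes tested and give no independent support. All cells had been transfected with siRNA by lipofection, left to recover and grown in mammary epithelial medium. Control siRNA (control-1) in complete medium with EGF, a ligand of the receptor EGFR, gave 3 libraries, 1 at passage 4 and 2 at passage 6 (A and B). The siRNA BRCA2-2, directed against a DNA repair gene, gave 1 library with EGF at passage 4 and 2 libraries without EGF at passage 6 (A and B). Control cells without EGF were not analysed here, so siRNA and medium differ together at passage 6. Each siRNA is a single reagent in 1 cell line. The deposited values are on a normalised log2 scale, the depth per library is unknown, and a difference of 1 means a doubling.

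Cells take up iron bound to transferrin through the transferrin receptor TFRC, and the divalent metal transporter SLC11A2 carries it from the endosome to the cytosol. Iron not in use is stored in ferritin, a shell of heavy (FTH1) and light (FTL) chains, from which the cargo receptor NCOA4 delivers it to lysosomes, and ferroportin (SLC40A1) is the exporter. The iron regulatory proteins ACO1 and IREB2 bind iron-responsive elements, short stem-loops in the mRNAs. Bound near the cap they block translation of ferritin and ferroportin, and bound in the 3′ UTR they stabilise TFRC mRNA, so ferritin protein need not follow ferritin mRNA.

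Those stem-loops are shown for FTL, SLC40A1 and TFRC, since their place in the mRNA goes with the different effects of the regulatory proteins. Human transcripts of GENCODE release 29 (GRCh38) were searched on the transcript strand for the loop CAGTGN between 5 bases on each side that pair with each other, G with T allowed, with an unpaired C just before the first 5. Each line gives 29 bases of the transcript, 5′ to 3′, with the loop of 6 bases in capitals.
FTL, 5′ UTR, chr19:48965335-48965363, plus strand: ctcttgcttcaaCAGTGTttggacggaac
SLC40A1, 5′ UTR, chr2:189580661-189580689, minus strand: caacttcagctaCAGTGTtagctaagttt
TFRC, 3′ UTR, chr3:196050979-196051007, minus strand: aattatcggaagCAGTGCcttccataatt
TFRC, 3′ UTR, chr3:196050575-196050603, minus strand: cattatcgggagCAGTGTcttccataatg
TFRC, 3′ UTR, chr3:196050510-196050538, minus strand: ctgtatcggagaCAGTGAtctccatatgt
TFRC, 3′ UTR, chr3:196050463-196050491, minus strand: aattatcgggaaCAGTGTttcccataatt
FTL and SLC40A1 held 1 match each, in the 5′ UTR, and TFRC held 4, all in the 3′ UTR. Of 19644 protein-coding genes searched, 36 (0.183%) had a match in a 5′ UTR and 132 (0.672%) in a 3′ UTR. In SLC11A2 these letters with full pairing were not found in the transcripts searched. Matches in FTH1 were not listed, so its absence above says nothing of whether it holds one. A match is a description of sequence and not a measurement of binding.

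Before the results, some facts on the libraries are needed. BRCA2 itself had log2 values of 10.19 in the passage 4 control and 10.88 in the passage 4 library labelled BRCA2 siRNA, so the label is not borne out there and whether the 2 passage 4 libraries were exchanged cannot be told apart from other causes here. At passage 6 BRCA2 had 11.25 and 11.24 in the controls against 11.15 and 10.89 without EGF. That difference of -0.23 did not pass either. Controls A and B were much closer to each other (SD of their differences over 14763 tested genes 0.119) than the pair without EGF (0.308). They carry the biological replicate letters A and B, but separate cultures are not stated. The passage 4 control stood apart, at 0.485 and 0.509 from controls A and B, while the passage 4 library labelled BRCA2 siRNA was at 0.290 and 0.321 from them and at 0.397 from its passage 4 partner. Every result that rests on the passage 4 control therefore rests on 1 library that stands apart. The p-values therefore reflect differences among single libraries only, in which technical variation may have a share. Basal mammary markers fitted the labelled cell type, with 15 of 15 tested and a summed log2 level of 19.15 to 19.83. The highest sums were those without EGF (19.83 and 19.80). Fibroblast markers (9 of 11 tested, 0 of 11 at 0) had a summed level of 11.14 to 11.36 in controls, 12.10 in the passage 4 library labelled BRCA2 siRNA and 12.77 and 12.80 without EGF. Luminal markers (6 of 12 tested) summed to between 11.61 and 12.19. Of 11 matched macrophage and leukocyte markers none passed the filter, and of 12 erythroid markers 7 were at 0 in every library and 1, the erythropoietin receptor gene EPOR, was tested. Of 8 hepatocyte markers 2 were at 0 and 1, SERPINA1, was tested.

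Of the 8 iron handling genes 7 were matched to a row and 6 passed the filter on low values, a mean of at least 10 for 2 raised to the value. NCOA4 was not matched and is named without a value. SLC40A1 did not pass, with values between -1.51 and -1.42 in the 6 libraries, near the lowest value of the table (-1.98), so mRNA of the exporter was scarcely detected in any library. The other 6 genes were well above the filter in every library.

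The 2 ferritin chains were the iron handling genes whose mRNA passed a test, between control libraries of passage 6 and the 1 of passage 4. FTH1 (ENSG00000167996), the heavy chain with the ferroxidase centre, had a log2 value of 13.47 in the passage 4 control and 12.89 in the passage 4 library labelled BRCA2 siRNA. At passage 6 it had 11.56 and 11.44 in controls A and B, and 11.48 and 11.81 in libraries A and B without EGF. Both passage 4 libraries were thus above all 4 passage 6 libraries, whichever siRNA or medium they carried. FTL (ENSG00000087086), the light chain of the iron core, had 13.35 and 12.37 in the same 2 passage 4 libraries. Its passage 6 values were 11.45 and 11.35 in the controls and 11.04 and 11.14 without EGF. Here too the passage 4 libraries did not overlap with the others. In bulk RNA, fewer cells rich in ferritin mRNA and less of it per cell cannot be told apart. Among tested genes 21.5% were lower at passage 6 without overlap in the same way.

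**Figure D1:**
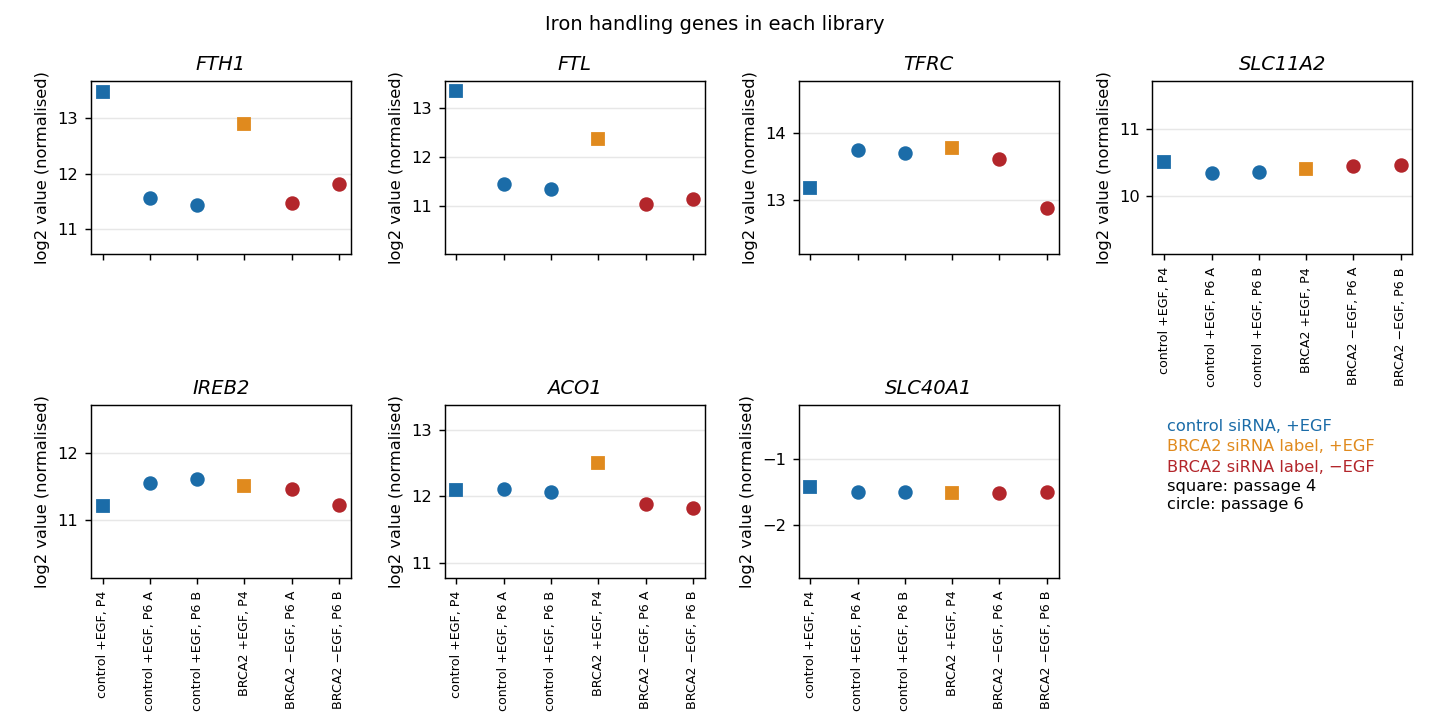
Normalised log2 values (vertical axis) of the 7 matched iron handling genes in each of the 6 libraries (horizontal axis), coloured by group, with squares for passage 4 and circles for passage 6. FTH1 and FTL are high in both passage 4 libraries (12.89 and 13.47, 12.37 and 13.35) and low in the 4 passage 6 libraries, while SLC11A2 stays between 10.34 and 10.51.

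The comparison of control cells between passages asks what changed with further growth under the same siRNA and medium (2 libraries against 1). FTH1 fell 3.91-fold, a log2 difference of -1.97 ± 0.17 (standard error, adjusted p = 0.0231, limma), and FTL fell 3.86-fold, a difference of -1.95 ± 0.10 (adjusted p = 0.0231, limma). Counted from the largest decrease, they ranked 26 and 29 of 14763 tested genes. Of the 6 tested iron handling genes 2 passed, both lower. The background was high, since 20.1% of tested genes passed in this comparison, 12.4% lower and 7.71% higher (1825 and 1138 genes, or 1339 and 1488 with each library centred on its median). Against the passage 4 library labelled BRCA2 siRNA, the same passage 6 controls were lower by a log2 difference of -1.39 in FTH1 (2.63-fold) and -0.97 in FTL (1.96-fold), so the sizes depend on which passage 4 library is the control. The single passage 4 control takes its spread from the other groups, and a difference of passage and one of that library cannot be told apart. Both ferritin calls were lost with controls A and B averaged (adjusted p = 0.186) and without control A (adjusted p = 0.146) or control B (0.205). In each case 0 of 14763 genes passed by limma (2770, 2959 and 2674 at an unadjusted p under 0.05), and the differences stayed between -2.03 and -1.86. Over the alternatives the adjusted p ran from 0.00722 to 0.205 for FTH1 and from 0.00617 to 0.205 for FTL.

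The receptor and the iron regulatory proteins did not pass in that comparison. TFRC had 13.17 in the passage 4 control against 13.74 and 13.70 at passage 6, a difference of 0.55 ± 0.31 (adjusted p = 0.243, limma). IREB2, which is degraded when iron is plentiful, had 11.21 against 11.55 and 11.61, a difference of 0.37 ± 0.13 (adjusted p = 0.0991, limma). The passage 4 library labelled BRCA2 siRNA, at 13.78 for TFRC and 11.50 for IREB2, also lay above the passage 4 control, without a change of passage. ACO1, a cytosolic aconitase when it carries its iron-sulphur cluster, had 12.09 in the passage 4 control against 12.11 and 12.06. This was a difference of 0.00 ± 0.09 (adjusted p = 0.992, limma). SLC11A2 had 10.51 against 10.34 and 10.36, a difference of -0.16 ± 0.09 (adjusted p = 0.222, limma). The gap between TFRC and FTH1 in a library widened from -0.29 in the passage 4 control to 2.18 and 2.26 in controls A and B, most of it through FTH1.

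The libraries labelled BRCA2 siRNA give a second view of passage with no library shared with the controls, but there medium changed too and the contributions cannot be told apart. Between passage 4 with EGF and passage 6 without EGF (2 libraries against 1), FTH1 was 2.38-fold lower, a difference of -1.25 ± 0.84 (adjusted p = 0.491, limma), and FTL was 2.43-fold lower, a difference of -1.28 ± 0.82 (adjusted p = 0.473, limma). The errors are wide in this fit, which takes its spread partly from 3 controls pooled over 2 passages. ACO1 had 12.50 at passage 4 against 11.88 and 11.83, a difference of -0.65 ± 0.15 (adjusted p = 0.169, limma). None of the 6 genes passed, against 0.203% of tested genes. With the controls split by passage, an alternative chosen after seeing the data, FTH1 (-1.25 ± 0.17, adjusted p = 0.0232), FTL (-1.28 ± 0.10, adjusted p = 0.0141) and ACO1 (-0.65 ± 0.09, adjusted p = 0.0241) passed by limma, all lower, as did 16.3% of tested genes, 8.89% lower. Over the alternatives the adjusted p ran up to 0.812 for FTH1, 0.809 for FTL and 0.679 for ACO1. The difference between the 2 passage comparisons was itself tested in a fit of 4 groups by siRNA, medium and passage. It was 0.72 ± 0.23 for FTH1 (adjusted p = 0.125, limma) and 0.67 ± 0.14 for FTL (adjusted p = 0.0682, limma), so a smaller decrease in the libraries labelled BRCA2 siRNA did not pass.

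**Figure D2:**
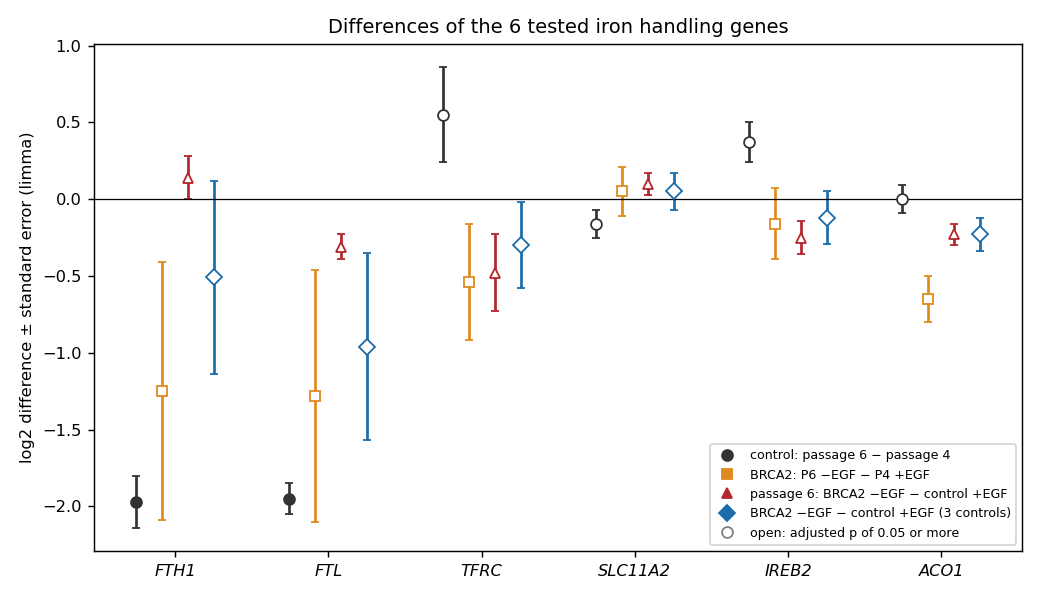
Log2 differences with the standard error of the limma fit (vertical axis) for the 6 tested iron handling genes (horizontal axis) in 4 comparisons, filled where the adjusted p was below 0.05. The only filled points are FTH1 (-1.97) and FTL (-1.95) in the control comparison of passage 6 with passage 4.

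At a fixed passage of 6, libraries labelled BRCA2 siRNA without EGF were set against control siRNA with EGF (2 against 2). FTH1 was 11.64 ± 0.236 against 11.50 ± 0.0901 (SD), a difference of 0.14 ± 0.14 (adjusted p = 0.505, limma). FTL was 11.09 ± 0.0686 against 11.40 ± 0.0728 (SD), a difference of -0.31 ± 0.08 (adjusted p = 0.0879, limma). So at passage 6 the FTL values did not overlap (11.04 and 11.14 against 11.35 and 11.45) while those of FTH1 did. Lower without overlap in this way were 35.7% of tested genes. TFRC was 13.61 in library A without EGF, close to the controls, and 12.87 in library B, a difference of -0.48 ± 0.25 (adjusted p = 0.257, limma) that was -0.11 without library B and -0.85 without library A. IREB2 showed the same split, with 11.46 in library A, 11.22 in library B and a difference of -0.25 ± 0.11 (adjusted p = 0.190, limma). ACO1 differed by -0.23 ± 0.07 (adjusted p = 0.113, limma) and SLC11A2 by 0.10 ± 0.07 (adjusted p = 0.375, limma). Of the 6 genes none passed, against 6.44% of tested genes (3.56% higher and 2.88% lower). An unadjusted p under 0.05 was reached by 2 of the 6 (FTL and ACO1) and by 4654 of 14763 tested genes (limma). Fibroblast markers, which were higher without EGF, had a median difference of 1.34 here. Basal mammary markers were higher too, with a median of 0.76 and 13 of 15 above 0. The part of either list in these values was not tested.

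ACO1, with 11.88 and 11.83 without EGF against 12.06 to 12.11 in the controls, and FTL also lay below all 3 controls, as 23.9% of tested genes did. Setting the same 2 libraries against all 3 controls gave no call among the 6 genes either, with 0.989% of tested genes called. An unadjusted p under 0.05 was reached by none of the 6 and by 2534 of 14763 tested genes (limma). FTL differed by -0.96 ± 0.61 (adjusted p = 0.465, limma) and FTH1 by -0.51 ± 0.63 (adjusted p = 0.707, limma). The size of both rested largely on the passage 4 control, since without it FTH1 was at 0.14 and FTL at -0.31. FTH1 thus changed direction and FTL kept it. TFRC differed by -0.30 ± 0.28, ACO1 by -0.23 ± 0.11, IREB2 by -0.12 ± 0.17 and SLC11A2 by 0.05 ± 0.12, with adjusted p between 0.335 and 0.865 (limma).

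At passage 4 with EGF, 1 library stood against 1, so the differences have no replicate check. The library labelled BRCA2 siRNA was lower than the control in FTL by -0.98 and in FTH1 by -0.58, and higher in TFRC by 0.60, ACO1 by 0.41 and IREB2 by 0.29, with SLC11A2 at -0.11. None of the 6 reached a difference of 1, which 2.21% of tested genes did, and 3 (FTH1, FTL and TFRC) reached 0.5, as did 17.3%.

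The difference between the 2 ferritin chains varied between libraries. FTH1 minus FTL was 0.12 in the passage 4 control and 0.11 and 0.09 in controls A and B. It was 0.52 in the passage 4 library labelled BRCA2 siRNA, and 0.43 and 0.67 in those without EGF. The 3 control values were close together although FTH1 itself fell 3.91-fold between them, and all 3 values of the libraries labelled BRCA2 siRNA lay above them, at either passage and with or without EGF. The means were 0.54 ± 0.12 and 0.11 ± 0.0162 (SD, n = 3 each), a difference of 0.44. This measure was chosen after its values were seen, so no test is given. How many other gene pairs separate in this way was not computed, and each group pools both passages. The separation depends on the passage 4 labels, since with those 2 libraries exchanged the values would overlap (0.12 and 0.52 trade places). It compares change within a library and says nothing of the relative amounts of the chains, since the values are not per length.

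**Figure D3:**
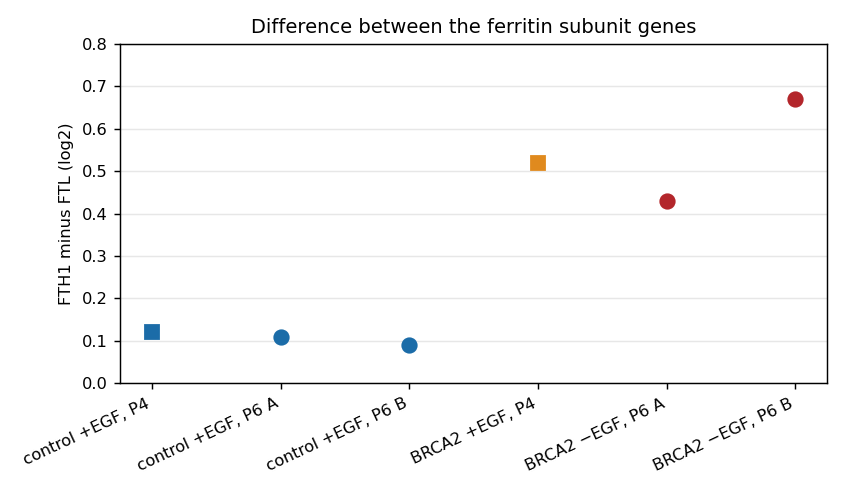
FTH1 minus FTL on the log2 scale (vertical axis) in each of the 6 libraries (horizontal axis), with squares for passage 4 and circles for passage 6. The 3 control libraries sit between 0.09 and 0.12 and the 3 libraries labelled BRCA2 siRNA between 0.43 and 0.67.

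Ferritin has many processed pseudogenes, and reads of near-identical copies can be split in counting, so the ferritin values are uncertain to that extent. Of 25 FTH1 pseudogenes matched by symbol 15 had a value other than 0 and 6 were tested. The 3 with the highest mean were FTH1P8, FTH1P2 and FTH1P11. FTH1P8 had 7.93 and 7.33 in the passage 4 libraries (control, then labelled BRCA2 siRNA), and at passage 6 had 5.94 and 5.91 in the controls and 5.86 and 6.30 without EGF. Between control passages FTH1P8 differed by -2.0, FTH1P2 by -1.74 and FTH1P11 by -1.62, and all 6 tested pseudogenes passed as lower (limma, 12.4% of tested genes did). The pseudogene rows thus followed FTH1, and whether these loci are transcribed was not tested. Their summed log2 level was 7.57 to 9.24, against 11.44 to 13.47 for FTH1. Of 16 FTL pseudogenes 13 were at 0 and none was tested. The highest was FTLP14, with 2.02 to 2.61.

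**Figure D4:**
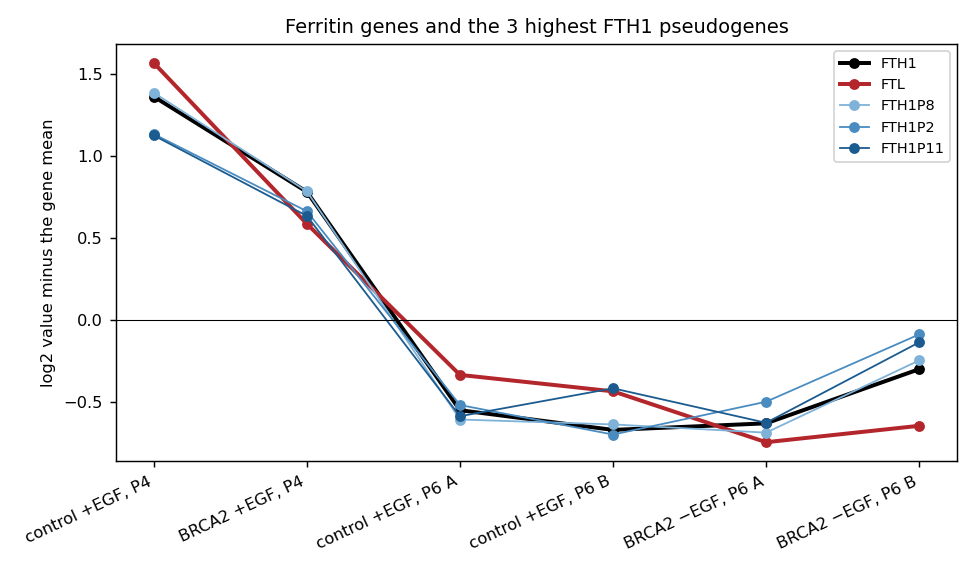
Log2 values of FTH1, FTL and 3 FTH1 pseudogenes, each minus its mean over the 6 libraries (vertical axis), with the libraries ordered by passage (horizontal axis; lines join the points of a gene). All 5 rows are highest in the passage 4 control and second in the passage 4 library labelled BRCA2 siRNA.

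Across the lists of other iron metabolism genes there were members that rose and members that fell between control passages, where the median of all tested genes was -0.03. Of all tested genes 7.71% rose and 12.4% fell there. At passage 6, in libraries labelled BRCA2 siRNA without EGF against control siRNA with EGF, 3.56% rose and 2.88% fell. Here and below, rose and fell mean higher or lower with an adjusted p below 0.05 (limma). Without EGF is short for that passage 6 comparison, in which siRNA and medium differ together and cannot be told apart. In the uptake and transport list 3 of 10 tested genes rose and none fell. These were STEAP1 (0.93 ± 0.10, adjusted p = 0.0231, limma) and STEAP2 (0.61), members of a family of metalloreductases, and SLC39A8 (0.87), a zinc transporter that can carry iron. All 3 were lower without EGF at passage 6 (-1.40, -0.91 and -0.56, adjusted p = 0.00773, 0.0224 and 0.0422, limma). No gene of the list passed as higher there, though 4 of 10 were above 0. STEAP1 had 8.65 in the passage 4 control, 9.61 and 9.55 in the passage 6 controls, 9.78 in the passage 4 library labelled BRCA2 siRNA and 8.22 and 8.14 without EGF, so its lowest values were those without EGF. The endosomal ferrireductase STEAP3 had -0.61 without passing (adjusted p = 0.0923). In the storage and export list of 8 tested genes the ferroxidase relative HEPHL1 (-1.0) and the low-level PCBP3 (-0.94) fell between control passages and PROM2 (0.97), linked to ferritin export in vesicles, rose. HEPHL1 stood at 9.28 in the passage 4 library labelled BRCA2 siRNA, above the other libraries at 6.84 to 8.0. The ferritin iron chaperone PCBP1 differed by -0.36 between passages and -0.39 at passage 6, neither passing.

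Of 13 tested regulators, HFE, a partner of the transferrin receptor, rose between control passages (1.02 ± 0.15, adjusted p = 0.0255, limma), a share like that over all tested genes. Without EGF at passage 6, the low-level BMP6 (-1.24), an inducer of hepcidin in liver, its target ID1 (-0.78) and the deubiquitinase USP13 (-0.54) fell. None passed as higher, though 5 of 13 were above 0. Between the 2 passage 4 libraries, both with EGF, ID1 and GDF15 reached a difference of 1, as did 2.21% of tested genes. In haem synthesis 1 of 12 tested genes fell between control passages, the mitochondrial carrier SLC25A38 (-0.68). Likewise 1 fell without EGF at passage 6, the rate-limiting enzyme ALAS1 (-0.40). For haem transport and degradation the exporters FLVCR1 (0.98) and ABCG2 (1.07) rose and biliverdin reductase B (BLVRB, -1.0) fell between passages, out of 12 tested, and none passed without EGF, where LRP1, a scavenger receptor for haem-haemopexin, had 0.57 and FLVCR2 had 0.88. Of 29 tested iron-sulphur cluster genes the scaffold ISCU (-0.52) and the cytosolic assembly factor CIAO2B (-0.45) fell between passages, a smaller share than over all tested genes. Without EGF 25 of 29 were below 0 (median -0.18), though none passed. Over all tested genes 52.7% were below 0 in that comparison. Between control passages 21 of 29 were below 0 as well (median -0.17), against 52.4% of all tested genes. Among 4 other tested mRNAs known to carry an iron-responsive element, EPAS1, a hypoxia-inducible factor subunit, fell between control passages (-1.14 ± 0.12, adjusted p = 0.0231, limma), from 12.70 to 11.62 and 11.50.

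Ferritin is also a textbook target of the antioxidant factor NRF2 and is turned over by autophagy. The 19 tested NRF2 targets had a median of 0.00 between control passages. Of these 3 rose (among them GCLM at 0.97, a subunit of the enzyme of glutathione synthesis) and 2 fell (AKR1C1 at -1.43 and OSGIN1 at -1.19). Over all tested genes 7.71% rose and 12.4% fell there. Without EGF at passage 6, 16 of 19 were below 0, with a median of -0.37, and GCLM (-0.58) and the malic enzyme ME1 (-0.74) fell. In that comparison 52.7% of all tested genes were below 0 and 2.88% fell. Of 21 autophagy receptors and cargo factors 18 were below 0 between control passages (52.4% of all tested genes were), with a median of -0.62, and 8 fell (12.4% of all tested genes did). In the passage 4 library labelled BRCA2 siRNA 19 of 21 were likewise below the passage 4 control, with a median of -0.30 (54.3% and -0.038 over all tested genes). Of these SQSTM1 (-1.33) and GABARAPL1 (-1.05) were past 1, so the list stood high in the single passage 4 control against either passage. The selective receptor SQSTM1 had 12.57 in the passage 4 control and 10.88 and 10.90 in controls A and B, a difference of -1.68 ± 0.14 (adjusted p = 0.0231, limma). GABARAPL1 (-1.98), OPTN (-1.26), the ULK complex gene RB1CC1 (-1.12), NBR1 (-0.92), WIPI2 (-0.73), GABARAP (-0.72) and TAX1BP1 (-0.62) fell with it. In the passage 4 library labelled BRCA2 siRNA SQSTM1 was 11.24, within the range of the passage 6 libraries (10.88 to 11.27). At passage 6 none of the 21 passed between the groups (median 0.03). Of 17 tested genes of lipid peroxide defence and ferroptosis, 3 rose and 4 fell between control passages (7.71% and 12.4% of all tested genes did). Among those that fell were the peroxidase GPX4 (-0.96) and the polyamine enzyme SAT1 (-1.32). The listed genes that passed between control passages, ribosomal protein genes, pseudogenes and BRCA2 included, were 69. Without control A or control B 0 of them passed, and the sign held in 69. Of the 11 listed genes that passed without EGF at passage 6, likewise 0 passed without control A or control B, and the sign held in 11 (STEAP1 at -1.37 and -1.44).

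**Figure D5:**
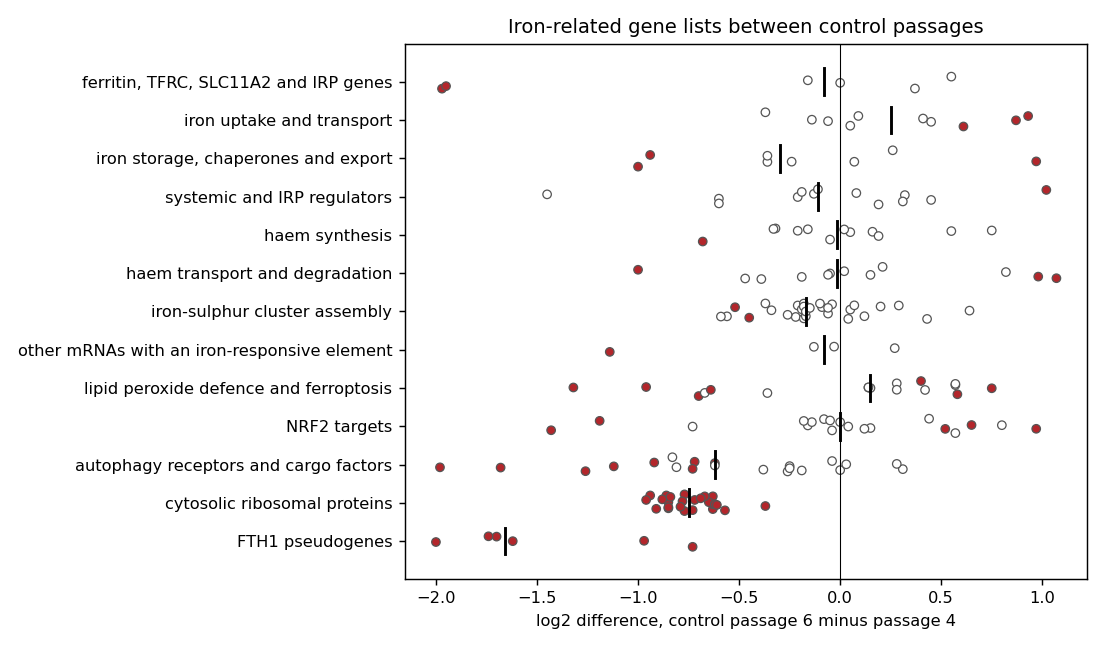
Log2 differences between control libraries at passage 6 and passage 4 (horizontal axis) for each tested gene of the lists named on the vertical axis, filled red where the limma adjusted p was below 0.05, with a black bar at the list median. FTH1 and FTL lie near -2 in the first list, the autophagy list has a median of -0.62 and the ribosomal protein list -0.75.

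Other measures differed between control passages beside ferritin. All 26 cytosolic ribosomal protein genes, which like ferritin encode short abundant mRNAs, were lower there (52.4% of all tested genes were below 0). Their median was -0.75 and the lowest value -0.96, so the ferritin differences were larger than that of any of the 26. With passage fixed all 26 were below 0 too, so their shift was not particular to passage. The median was -0.36 in the passage 4 library labelled BRCA2 siRNA against the passage 4 control, and -0.25 without EGF at passage 6. Tested genes with a median annotated transcript length of 500 to 1000 bases, the class of FTL (878), had a median difference of -0.10 between control passages. For 3000 to 5000 bases, the class of TFRC (4923), it was -0.03. With passage fixed the same classes had -0.07 and -0.01 at passage 6, and -0.08 and -0.06 in the passage 4 pair. The part of these shifts in the ferritin result was not tested.

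The genes of most similar pattern were found by the root mean square difference of values centred on each gene's mean over the 6 libraries, over 11809 genes whose mean was 50 or more. Nearest to FTH1 was ALOX15B, a lipoxygenase (0.167, Pearson r = 0.979 over 6 libraries, a description), followed by KRT81 (0.206) and RPLP0P2 (0.225), both with near-identical copies and so uncertain. Nearest to FTL were the glycerol kinase GK (0.173), the autophagy gene WIPI1 (0.191) and the steroid dehydrogenase HSD17B2 (0.230). WIPI1 had 9.76 in the passage 4 control, 8.67 in the passage 4 library labelled BRCA2 siRNA and 7.85 to 8.21 at passage 6. Nearest to TFRC were TUBB2B (0.0625), NAT1 (0.0634) and MAGEE1 (0.067), each low in the passage 4 control and in library B without EGF. No test was made of this likeness.

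The promoters of FTL and TFRC, of which FTL fell between control passages and TFRC did not pass, are shown from RefSeq (GRCh38.p14), which had entries for 7 of the 8 genes. Each line holds the 250 bases before the start, 5′ to 3′ on the gene's strand, with matches in capitals. The letters searched on both strands were ACGTG (the core of hypoxia response elements), CACGTG (an E-box, which contains ACGTG), TGACNNNGC (the antioxidant response element) and TATAAA.
FTL, chr19:48965059-48965308, plus strand: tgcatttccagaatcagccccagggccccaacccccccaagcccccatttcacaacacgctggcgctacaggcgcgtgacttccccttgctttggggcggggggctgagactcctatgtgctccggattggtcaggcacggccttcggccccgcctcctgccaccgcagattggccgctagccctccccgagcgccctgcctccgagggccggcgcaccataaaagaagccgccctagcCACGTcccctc
TFRC, chr3:196082091-196082340, minus strand: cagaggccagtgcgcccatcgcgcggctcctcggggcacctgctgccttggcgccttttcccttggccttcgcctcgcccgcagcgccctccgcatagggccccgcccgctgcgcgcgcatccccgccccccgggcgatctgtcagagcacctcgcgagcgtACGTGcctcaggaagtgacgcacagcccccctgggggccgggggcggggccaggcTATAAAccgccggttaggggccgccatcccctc
TFRC held ACGTG and TATAAA, and FTL held ACGTG on the other strand. Of 35116 promoter windows of this length 18.5% held ACGTG, 6.34% CACGTG, 10.9% TGACNNNGC and 10.7% TATAAA. These matches are descriptions of sequence and not sites of binding.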

How the data were processed

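The 6 libraries of hTert-HME1 mRNA were prepared with ScriptSeq reagents, per the labels' protocols. Per the submitters' processing notes, TopHat2 2.0.11, DESeq2 and the build hg19 were used, in roles that the notes do not state. For the counter, the annotation and the transformation, the answer is not given in the sources used here. A single table was deposited by the authors, of normalised log2 values (-1.98 to 19.93, 57820 Ensembl rows). All 6 columns were matched to samples through the labels. Depth per library is unknown, so no counting interval is given and count models were not used. Low genes may be shrunk.

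A gene was tested (14763 were) where 2 raised to its value averaged 10 or more, with limma 3.58.1 in R 4.3.3 (mean-variance trend, robust prior, two-sided, Benjamini-Hochberg adjusted p below 0.05). Comparisons across passages of the controls, and at passage 6, used 4 groups by siRNA, medium and passage (2 residual degrees of freedom). The others used 3 groups by siRNA and medium (3 residual degrees of freedom). The passage 4 pair was not tested. The procedure was checked on simulated data. Ensembl identifiers gave symbols for 89.9% of rows.

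The iron handling genes and lists were chosen with earlier results of these data known. Beyond all 8 genes, the rule named per list up to 3 tested genes with a mean of at least 20 and the largest difference at passage 6, the 3 highest ferritin pseudogenes and the 3 genes of most similar pattern for FTH1, FTL and TFRC. Other genes that passed a test in a list, the ribosomal protein list, FTH1 minus FTL, and WIPI1's values were taken up after values were seen. Alternatives covered filters, scalings, the prior, the replicate letter as a block, averaging controls A and B, and leaving out each library. Transcript and promoter sequences are of GRCh38, matched by gene and not by coordinates of the deposited table.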

Additional observations from a re-analysis of the deposited data

How the results depend on the processing

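The numbers of iron handling genes past the threshold were recomputed under each alternative. Between control passages the 2 calls (FTH1 and FTL) became 0 with no filter on low values (31834 genes tested), 0 with controls A and B averaged, and 0 to 2 with a library left out. At passage 6 the count of 0 ran from 0 to 5 with a library left out. It was 5 without library A and 4 without library B of the group without EGF, where the spread comes from controls A and B alone. Each of these fits left a single library in the group without EGF, and a large part of all tested genes passed there too. These counts are therefore not particular to the iron handling genes. For the libraries labelled BRCA2 siRNA across passages 0 became 3 with the spread of the 4 groups, chosen after seeing the data. For the passage 4 pair 0 became 3 (FTH1, FTL and TFRC) at a difference of 0.5, past which 17.3% of tested genes lay. The replicate letter as a block gave 0, 0, 2 and 0 genes against all controls, at passage 6, between control passages and across passages of the libraries labelled BRCA2 siRNA, so it changed no count of theirs, and no paired culture is stated for the letters. Comparisons across passages could not be fitted without their single passage 4 library.

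Directions turned for FTH1 against all controls (0.14 without the passage 4 control, with -0.87 to 0.14 over the libraries left out, and 0.14 with 4 groups), TFRC there (-0.67 to 0.07 over the libraries left out), FTH1 at passage 6 (-0.02 to 0.31), ACO1 between control passages (-0.03 to 0.03), and FTH1 (0.72) and FTL (0.67) across passages of the libraries labelled BRCA2 siRNA with the control passage difference taken off. Over all tested genes the calls against all controls (146) were 87 with no filter, 94 at a mean of at least 50, 6 with the block, 37 with controls averaged, 950 with 4 groups and 0 to 951 with a library left out (1057 at an unadjusted p under 0.05 without library B and 1853 without library A of the group without EGF). At passage 6 (950) they were 76 with no filter, 46 with controls averaged and 42 to 8964 with a library left out. Between control passages (2963) they were 0 with no filter (7341 at an unadjusted p under 0.05), 0 with controls averaged (2770) and 0 to 2968 with a library left out. Across passages of the libraries labelled BRCA2 siRNA (30) they were 18 with no filter, 13 at a mean of at least 50, 56 with a plain prior, 0 with the block (1008), 11 with controls averaged, 0 with library A or B without EGF left out (1857 and 1239), 569 with the control passage difference taken off and 2406 with the spread of the 4 groups. Where not stated, the cause was not tested. Depth is unknown, so its limits could not be computed.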
